A study of Homo sapiens with 9 samples.

Results

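The myogenic transcription factors described here are MYOD1, MYOG, MYF5 and MYF6, the MEF2 family members MEF2A, MEF2C and MEF2D, the paired-box factor PAX7 and the E protein TCF12. Every probe set whose annotation on the array named 1 of these 9 genes and no other was taken, which gave 20 of the 54613 probe sets of the series. RNA was hybridised to Affymetrix U133 Plus 2.0 arrays, with 3 arrays for each of 3 ways of growing Rh30 cells. Rh30 is an established line of fusion-positive rhabdomyosarcoma (FP-RMS), and all 3 groups carry the PAX3-FOXO1 fusion, so the comparisons concern growth conditions within 1 cell line. Adherent cells were monolayers in standard medium with 10% serum. Spheres were grown without attachment in Neurobasal medium with B27, bFGF, EGF and insulin and were collected after 48 h, so medium and attachment changed together. Xenografts were tumors in immunodeficient SCID/beige mice. The methods of the study give these as adherent cells injected into the gastrocnemius muscle, whereas the labels describe implants under the skin of the flank from adherent or sphere cultures.

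MYOD1, MYF5, MYOG and MYF6 are the basic helix-loop-helix (bHLH) myogenic regulatory factors. Each pairs with an E protein such as TCF12 to bind E-box sites in muscle genes, and ID proteins block that pairing. MYOD1 and MYF5 set the muscle lineage, MYOG drives terminal differentiation, and MYF6 acts late in differentiation and in mature fibres. MEF2 factors bind A/T-rich sites and act with the bHLH factors on the same genes, and PAX7 marks satellite cells, the stem cells of adult muscle. FP-RMS cells express MYOD1 and MYOG and yet keep dividing, and pathologists stain for these proteins.

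All values are deposited log2 intensities after robust multi-array averaging (RMA), and a difference of 1 is a doubling. Differences were tested with limma over all 54613 probe sets, and a change was called at a Benjamini-Hochberg adjusted p under 0.05. Levels of different probe sets were not compared as amounts of RNA, because each has its own hybridisation strength. Brightness percentiles and summed levels of lists describe signal only. The 9 arrays had medians of 4.78 to 4.88, and arrays of the same group correlated at 0.99 to 0.998. The signal of the ACTB 3′ control probe set exceeded that of its 5′ partner by 2.07 to 2.67 in adherent cells, 3.15 to 3.31 in spheres and 2.30 to 2.75 in xenografts, which is a sign of RNA quality that moved with the sphere group. The same difference for GAPDH was 0.42 to 0.68, 0.59 to 0.67 and 0.41 to 0.64. The part of these control signals in the sphere results was not tested. Of 14 rhabdomyosarcoma markers, 13 had a probe set of their own, and all 13 lay at or above the median brightness of 4.84. In spheres 7 of the 13 fell and 0 rose, beside 16.3% and 13.5% of all genes at their brightest probe sets. The median was -0.38, beside -0.04 over all genes. The list holds the members MYOD1 and MYOG, and MYOG was among those that fell. The others that fell in spheres included PIPOX, by 1.65, ALK, by 1.43, and TFAP2B, by 1.17, genes known to be high in FP-RMS. In xenografts 2 rose and 3 fell compared to adherent cells, beside 12.6% and 14.3% of all genes. Compared to spheres, 7 rose and 1 fell in xenografts, beside 25.7% and 18.3%.

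Of the 20 member probe sets, 3 rose and 3 fell in spheres compared to adherent cells, or 30.0%, beside 26.0% of all probe sets. In xenografts compared to adherent cells, 1 rose and 7 fell, or 40.0%, beside 23.0% of all probe sets. Over all probe sets in that comparison, 9.78% rose and 13.2% fell. In xenografts compared to spheres, 4 rose and 8 fell, or 60.0%, beside 39.1% of all probe sets (20.6% higher and 18.5% lower). This last count was 7 without sphere array 3 and between 9 and 12 without any other array. Member medians of the log2 differences were -0.09, -0.11 and -0.10 in the 3 comparisons, beside -0.02, 0.07 and 0.10 over all probe sets. In brightness, 13 of the 20 member probe sets lay at or above the median and 7 below it. Calls were more common among brighter probe sets. In a fit of these alone, 6, 7 and 8 of the 13 were called in the 3 comparisons. Of all 27307 brighter probe sets, 12602, 11325 and 15638 were called. The 7 that fell in xenografts compared to adherent cells belong to MEF2A, MEF2C, MEF2D and TCF12, so several share a gene. The comparisons against adherent cells share the 3 adherent arrays, so they are not independent of each other.

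**Figure D1:**
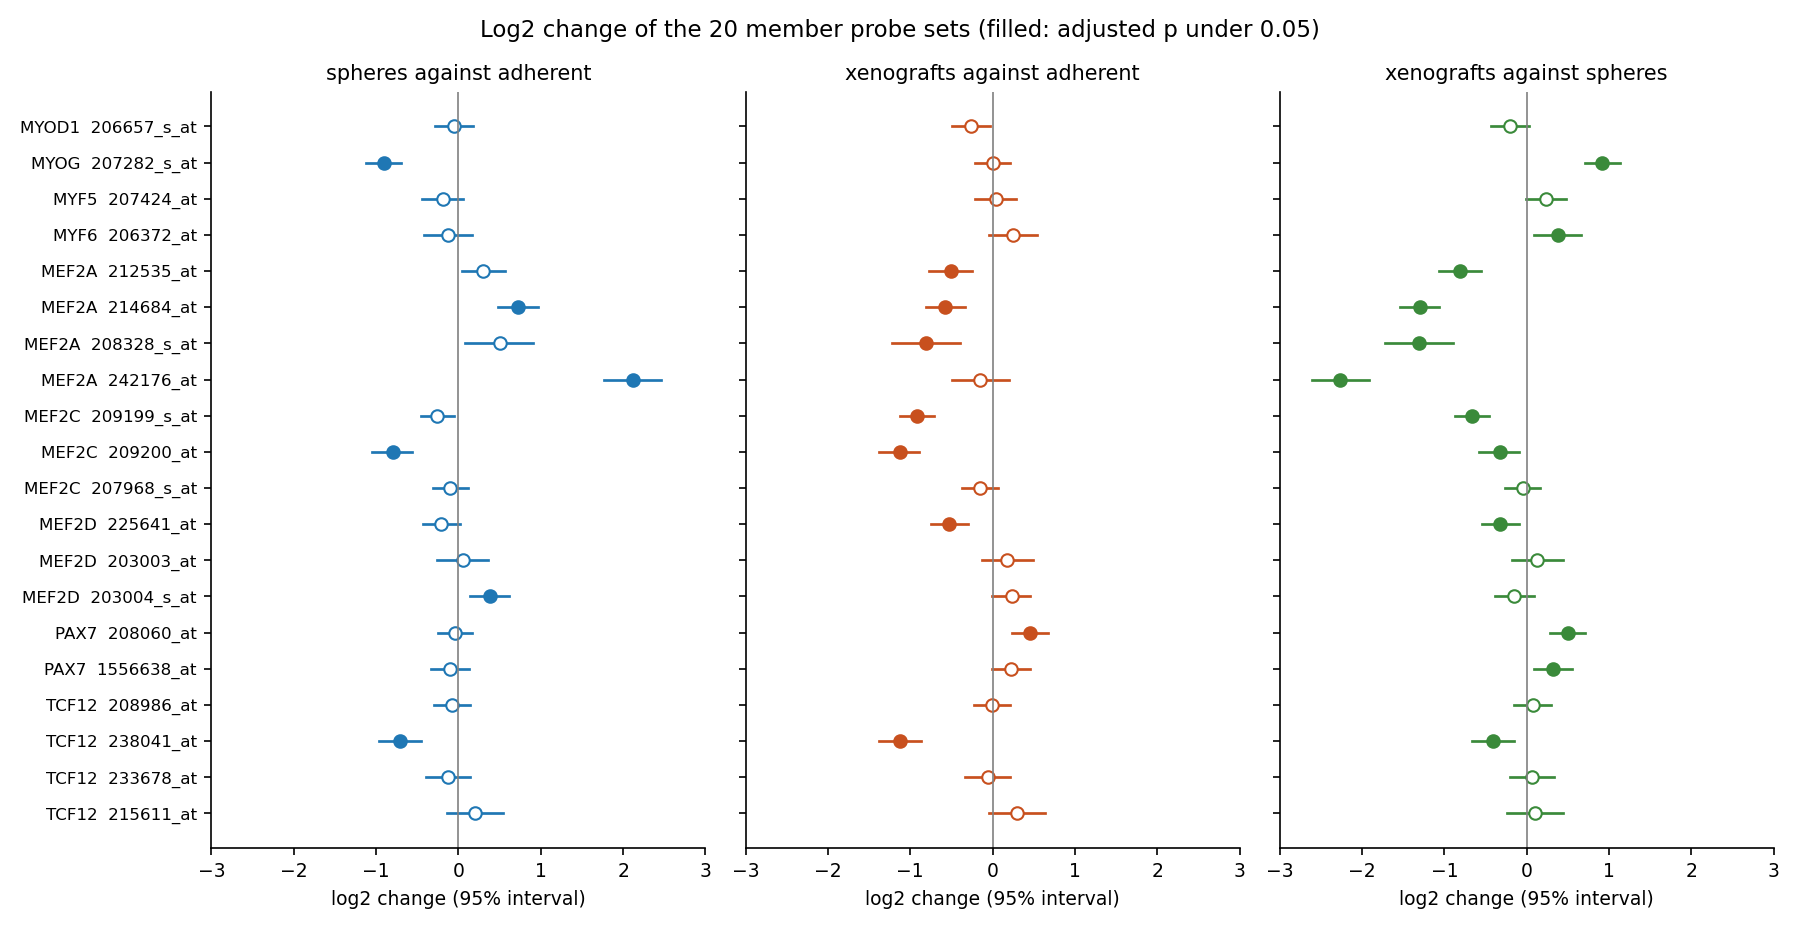
Log2 difference of each of the 20 member probe sets in the 3 comparisons, with bars for the 95% confidence interval and filled points for changes called at a limma adjusted p under 0.05. In spheres compared to adherent cells MYOG lies farthest to the left, at -0.91, close to MEF2C at 209200_at (-0.80). The MEF2A probe set 242176_at lies farthest to the right there, at 2.12. In xenografts compared to adherent cells MYOG lies at 0.

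MYOG, the factor of terminal differentiation, was lower in spheres than in either other group. Its probe set 207282_s_at read 9.89, 9.96 and 10.09 in adherent cells, 9.09, 9.02 and 9.09 in spheres, and 9.84, 10.04 and 10.06 in xenografts. All 3 sphere arrays lay below the other arrays, while the adherent and xenograft arrays overlapped. The difference of spheres from adherent cells was -0.91 (SE 0.10, limma adjusted p = 2.79e-05), and that of xenografts from spheres was 0.92 (SE 0.10, limma adjusted p = 2.1e-05), a 1.89-fold higher level. Between xenografts and adherent cells the difference was 0.00, with a 95% confidence interval from -0.21 to 0.21. In bulk RNA, fewer MYOG-positive cells and less MYOG RNA per cell cannot be told apart.

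MYOD1, the factor that sets the lineage, gave 1 of the brightest signals on the arrays, and no comparison called a change in it. Its probe set 206657_s_at, at a brightness percentile of 98.1, read 11.06, 11.17 and 11.14 in adherent cells, 11.06, 11.08 and 11.06 in spheres, and 10.65, 11.01 and 10.94 in xenografts. The xenograft arrays lay below all others, with the first the lowest, and the adherent and sphere arrays overlapped. Spheres differed from adherent cells by -0.05, with an interval from -0.28 to 0.18. Xenografts differed from adherent cells by -0.26, with an interval from -0.49 to -0.03 and a limma adjusted p of 0.101, so no change was called. The corresponding sphere interval of MYOG was -1.12 to -0.70. Whether the 2 genes differed from each other in their change was not tested.

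MYF5 and MYF6, the other 2 bHLH factors, gave dim signals, at brightness percentiles of 18.6 and 20.4. MYF5, which acts early beside MYOD1, read 2.96, 2.96 and 3.07 in adherent cells, 3.01, 2.68 and 2.74 in spheres, and 2.95, 2.96 and 3.21 in xenografts. No comparison called a change in it, and the groups overlapped. MYF6 read 3.21, 2.93 and 2.89 in adherent cells, 3.12, 2.72 and 2.80 in spheres, and 3.38, 3.28 and 3.11 in xenografts. It passed the threshold in xenografts compared to spheres and in no other comparison (0.38, SE 0.13, limma adjusted p = 0.0404), although 1 sphere array lay above 1 xenograft array. The call was lost without any 1 of 6 arrays (adherent 2 and 3, spheres 2 and 3, xenografts 1 and 2), and over all 9 settings that ended it the adjusted p was 0.0512 to 0.155. The median difference over probe sets of similar brightness was 0.16 there.

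**Figure D2:**
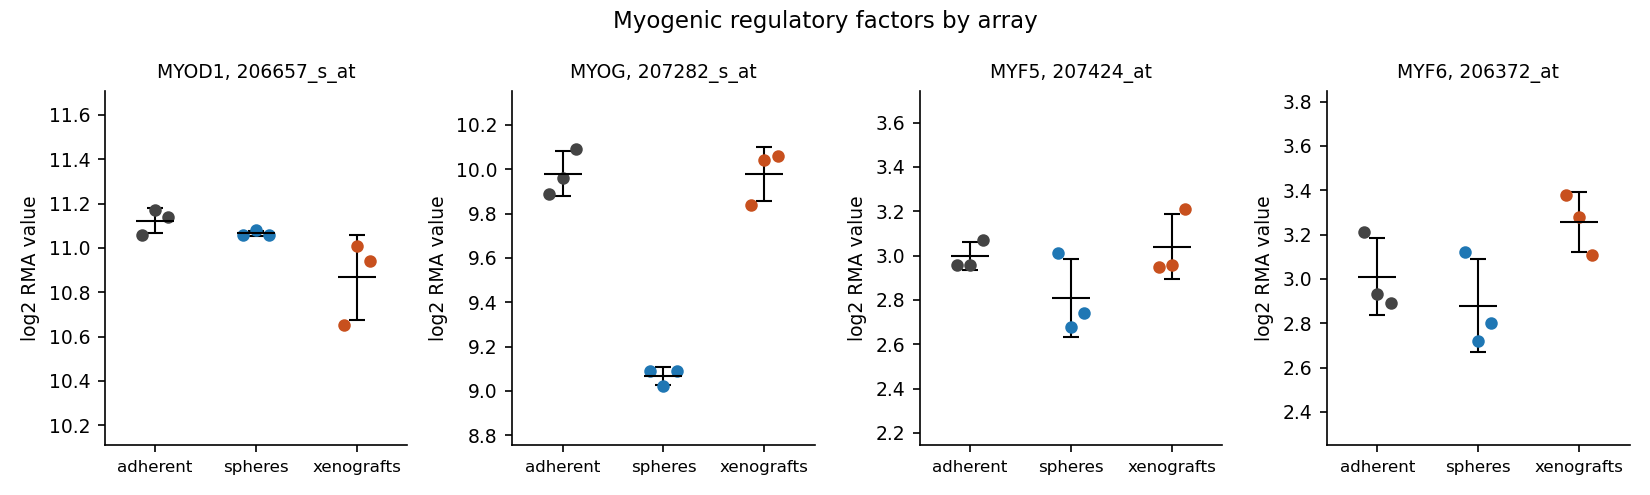
Log2 RMA value of each array for MYOD1, MYOG, MYF5 and MYF6 in the 3 groups, with the mean as a line and the SD as bars. The 3 sphere arrays of MYOG sit between 9.02 and 9.09, below the arrays of both other groups, which start at 9.84.

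The sequence before the MYOG start is shown because the gene carried the clearest change among the bHLH factors, with a promoter known as a target of other members of this set. The 250 bases before the RefSeq start, at chr1:203086013-203086262 on the minus strand of GRCh38.p14, are given 5′ to 3′ with the E-box CAGTTG at -13 to -8 in capitals.
MYOG promoter: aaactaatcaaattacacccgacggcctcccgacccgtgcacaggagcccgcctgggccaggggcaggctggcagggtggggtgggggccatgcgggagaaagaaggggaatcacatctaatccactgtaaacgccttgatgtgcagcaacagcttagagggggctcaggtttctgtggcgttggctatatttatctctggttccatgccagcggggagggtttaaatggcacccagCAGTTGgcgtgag

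For comparison, the window of MEF2A at chr15:99565734-99565983 on the plus strand is shown, because it is the window of the other most changed member that holds a MEF2 consensus, CTAAAAATAG at -23 to -14, in capitals.
MEF2A promoter: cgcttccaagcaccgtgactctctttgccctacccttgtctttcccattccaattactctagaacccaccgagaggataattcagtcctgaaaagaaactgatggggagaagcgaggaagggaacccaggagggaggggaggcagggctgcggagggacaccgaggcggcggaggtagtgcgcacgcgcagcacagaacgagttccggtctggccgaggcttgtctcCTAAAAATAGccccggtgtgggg

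Of the 9 members, 8 matched entries of the RefSeq promoter table, with 20 windows in all, and MYOD1 is named only. On both strands, the E-box CANNTG was found in 9 of the 20 windows, beside 61.8% of all 35116 windows of that length, and the MEF2 consensus in 3, beside 2.8%. The windows with the MEF2 consensus belong to MEF2A, MEF2C and MYF6. Only full matches to YTAWWWWTAR were counted. The stretch ctatatttat in the printed MYOG window departs from it at the last base and was left out, so near matches are not covered. In MYF6 the MEF2 match, at -34 to -25, overlaps a TATA box. A match describes the letters of a window, and no binding was measured.

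Within the MEF2 family, MEF2A and MEF2C moved in opposite ways in spheres, although neither difference was called at the brightest probe set of its gene. Both genes were lower in xenografts than in adherent cells at their brighter probe sets. MEF2A, a broadly expressed member, had 4 probe sets. At 214684_at it read 8.62, 8.62 and 8.56 in adherent cells, 9.11, 9.42 and 9.46 in spheres, and 7.94, 8.14 and 8.01 in xenografts. The 3 groups were fully separate, with spheres highest and xenografts lowest. Spheres exceeded adherent cells by 0.72 (SE 0.11, 1.65-fold, limma adjusted p = 0.000383), and xenografts fell by 0.58 against adherent cells (SE 0.11, limma adjusted p = 0.00288).

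The largest change of any member probe set was at 242176_at, also MEF2A, at a brightness percentile of 49.6. This probe set read 4.09, 4.14 and 4.25 in adherent cells, 5.94, 6.45 and 6.44 in spheres, and 3.80, 3.93 and 4.30 in xenografts. Spheres stood above both other groups, which overlapped each other. The rise in spheres was 2.12 (SE 0.16, 4.34-fold, limma adjusted p = 2.3e-06), whereas the difference of xenografts from adherent cells was -0.15 (limma adjusted p = 0.523). The brightest MEF2A probe set, 212535_at, read 8.71, 8.79 and 8.71 in adherent cells, 9.21, 8.87 and 9.04 in spheres, and 8.35, 8.33 and 8.01 in xenografts. Its sphere difference of 0.30 (limma adjusted p = 0.0885) was not called, although no arrays overlapped, and its xenograft difference of -0.51 was (limma adjusted p = 0.01), and was lost after quantile normalization (-0.35, adjusted p = 0.0599) and under an adjusted unpaired t-test (adjusted p = 0.0795).

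The remaining MEF2A probe set, 208328_s_at, read 7.84, 8.23 and 7.92 in adherent cells, 8.27, 8.62 and 8.59 in spheres, and 7.48, 7.36 and 6.71 in xenografts. Spheres were again highest and xenografts lowest, without overlap. The difference of 0.50 in spheres was not called (limma adjusted p = 0.0778), and xenografts fell by 0.81 (SE 0.19, limma adjusted p = 0.00952, and 0.154 under the adjusted unpaired t-test). All 4 MEF2A probe sets were called lower in xenografts than in spheres, by 0.81 to 2.27 on the log2 scale. Spheres were highest at all 4 probe sets and xenografts lowest at 3, with overlap between adherent cells and xenografts at 242176_at, and which transcripts each detects was not examined.

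MEF2C, the member most tied to skeletal muscle differentiation and also expressed in endothelial and myeloid cells, was lowest in xenografts. At its brightest probe set, 209199_s_at, it read 10.65, 10.78 and 10.63 in adherent cells, 10.42, 10.42 and 10.44 in spheres, and 9.82, 9.86 and 9.62 in xenografts. The groups did not overlap, in the order adherent, spheres, xenografts. Xenografts fell by 0.92 against adherent cells (SE 0.09, limma adjusted p = 5.24e-05). The sphere difference of -0.26, with an interval from -0.46 to -0.05, missed the threshold (limma adjusted p = 0.0674) and passed it under 8 of the alternative settings, with adjusted p of 0.00261 to 0.0433. Xenografts lay below spheres by a further step, with a difference of -0.66 (limma adjusted p = 0.000199).

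The second MEF2C probe set, 209200_at, gave a larger sphere difference. It read 9.79, 9.81 and 9.70 in adherent cells, 9.04, 8.82 and 9.04 in spheres, and 8.61, 8.83 and 8.46 in xenografts. Adherent arrays were the highest, and sphere and xenograft arrays overlapped. The fall was 0.80 in spheres (SE 0.11, limma adjusted p = 0.00022) and 1.13 in xenografts (SE 0.11, limma adjusted p = 4.05e-05). The difference of xenografts from spheres, -0.33 (limma adjusted p = 0.0346), was lost under 10 alternatives, among them the fits without adherent array 1, sphere array 1 or 3, or xenograft array 1 or 3, with adjusted p of 0.0504 to 0.153. The dimmer 207968_s_at read 5.71 to 6.08 over all 9 arrays, and no comparison called a change in it.

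MEF2D, which like MEF2A is broadly expressed, differed between its probe sets. Its brightest, 225641_at, read 6.72, 6.78 and 6.67 in adherent cells, 6.45, 6.56 and 6.53 in spheres, and 6.22, 6.36 and 6.02 in xenografts. The groups did not overlap and followed the order of MEF2C. Xenografts fell by 0.53 against adherent cells (SE 0.10, limma adjusted p = 0.00349), and the sphere difference of -0.21 was not called (limma adjusted p = 0.179). With the 3 probe sets of the gene averaged, the xenograft difference was -0.04 and was not called (adjusted p = 0.742), and the call at 225641_at was also lost under the adjusted unpaired t-test (0.0645). The difference of xenografts from spheres, -0.32 (limma adjusted p = 0.0295), was lost under 7 alternatives, among them the fits without sphere array 2 or 3 or xenograft array 3, with adjusted p of 0.0645 to 0.286. At 203004_s_at spheres were instead higher, with 4.76, 4.81 and 4.89 in adherent cells, 5.06, 5.25 and 5.28 in spheres, and 4.90, 5.03 and 5.22 in xenografts. That rise of 0.38 (SE 0.11, limma adjusted p = 0.0214) was lost when adherent array 1 or 2 or sphere array 2 or 3 was left out, with adjusted p of 0.0654 to 0.088. The other probe set, 203003_at, read 5.50 to 6.06 over the 9 arrays, and no change was called.

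**Figure D3:**
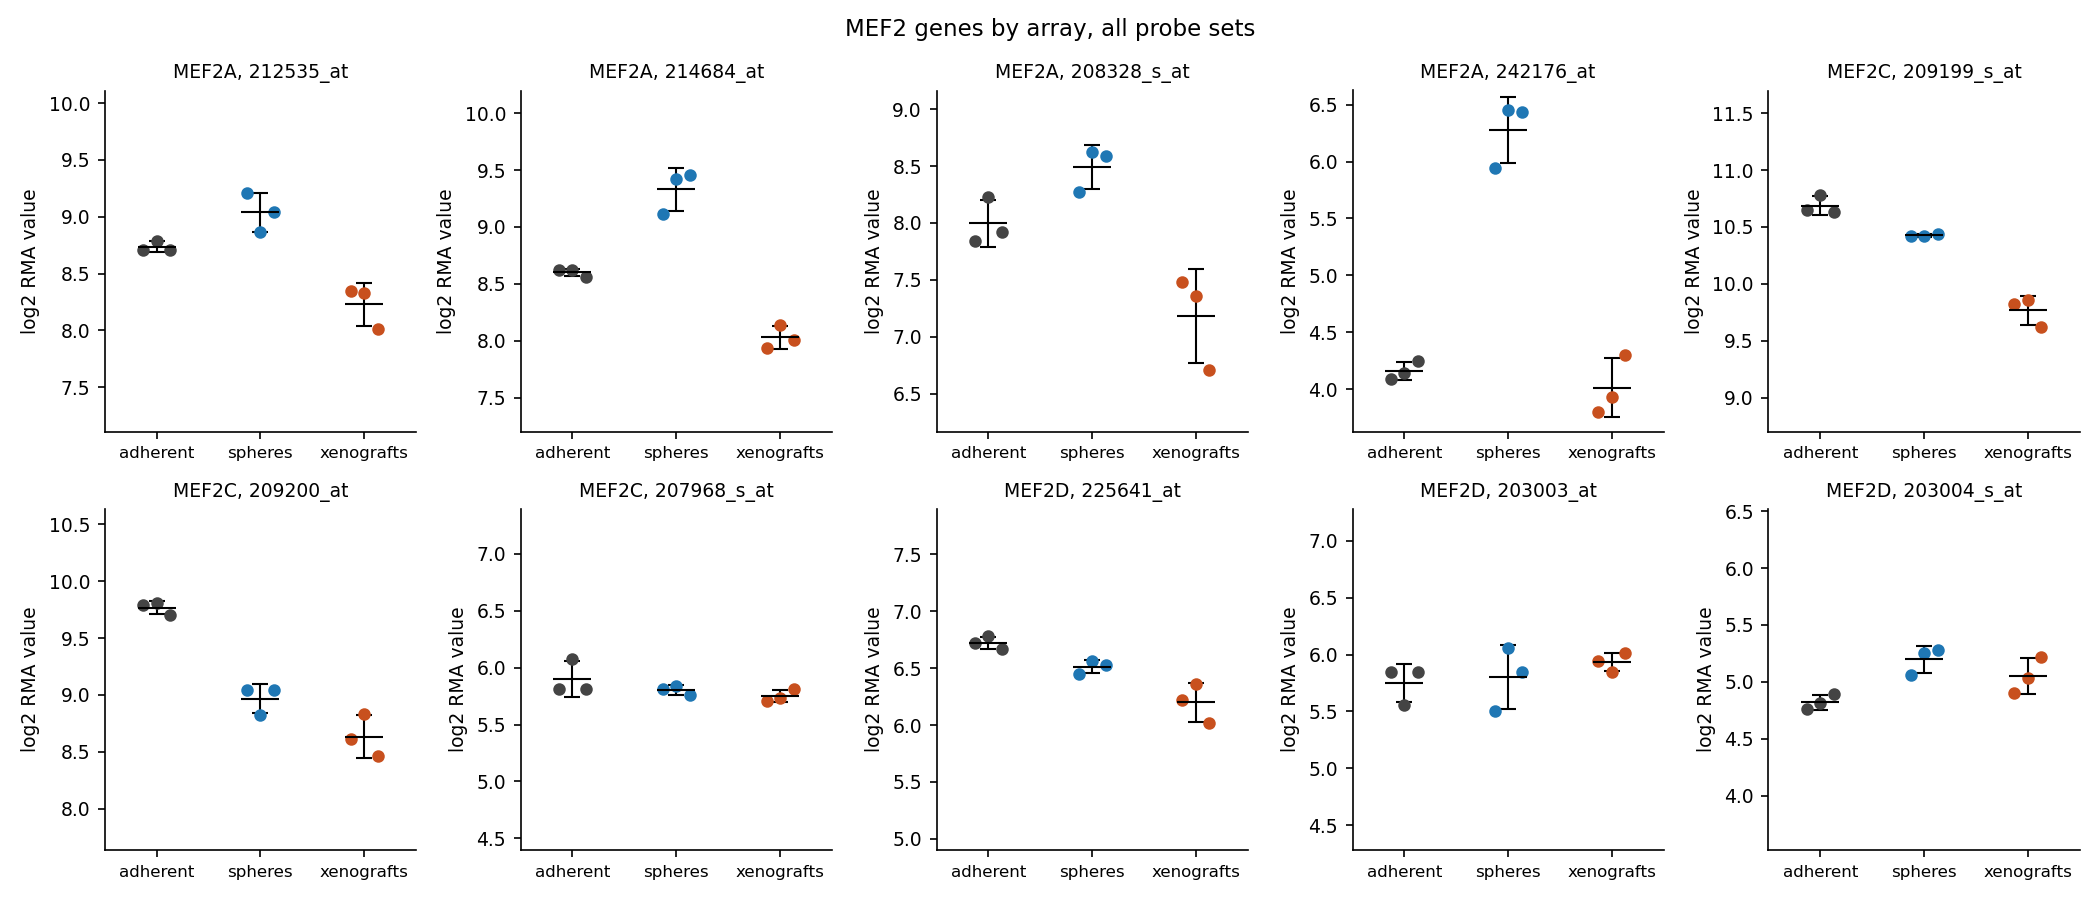
Log2 RMA value of each array at the 10 probe sets of MEF2A, MEF2C and MEF2D in the 3 groups, with the mean as a line and the SD as bars. At MEF2A the sphere arrays are the highest at all 4 probe sets, and at MEF2C the adherent arrays are the highest at the 2 brighter probe sets.

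PAX7, a satellite cell factor and a paralog of PAX3, from which the fusion takes its DNA-binding domains, was higher in xenografts than in both cultures. Its probe set 208060_at, at a brightness percentile of 44.5, read 4.47, 4.29 and 4.34 in adherent cells, 4.37, 4.31 and 4.30 in spheres, and 4.86, 4.68 and 4.93 in xenografts. All xenograft arrays lay above all others, and the 2 cultures overlapped. The rise was 0.46 against adherent cells (SE 0.10, 1.37-fold, limma adjusted p = 0.00588) and 0.50 against spheres (limma adjusted p = 0.00185), and the medians over probe sets of similar brightness were 0.13 and 0.17. At the dimmer 1556638_at it read 3.55, 3.55 and 3.44, then 3.51, 3.51 and 3.21, then 3.81, 3.66 and 3.73 in the same order of groups. The xenograft arrays were again the highest, by 0.22 against adherent cells (limma adjusted p = 0.148) and by 0.32 against spheres (limma adjusted p = 0.0302). The latter call was lost without sphere array 3 or xenograft array 1 or 3, and under 3 other settings, with adjusted p of 0.0538 to 0.134. The rise at 208060_at against adherent cells was lost under the adjusted unpaired t-test (adjusted p = 0.0657).

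TCF12, the E protein partner of the bHLH factors, gave bright and steady values at 208986_at and a fall at 238041_at. At 208986_at it read 10.84, 11.11 and 10.84 in adherent cells, 10.80, 10.86 and 10.91 in spheres, and 10.91, 11.02 and 10.84 in xenografts. The groups overlapped, and the differences from adherent cells were -0.08 in spheres, with an interval from -0.30 to 0.14, and -0.01 in xenografts, with an interval from -0.23 to 0.21. At 238041_at it read 7.03, 7.40 and 7.27 in adherent cells, 6.43, 6.58 and 6.55 in spheres, and 5.97, 6.23 and 6.12 in xenografts. These groups were fully separate, with a fall of 0.71 in spheres (SE 0.12, limma adjusted p = 0.000627) and of 1.13 in xenografts (SE 0.12, limma adjusted p = 5.26e-05). The step from spheres to xenografts, -0.41 (limma adjusted p = 0.0149), was lost without sphere array 2 or 3 (adjusted p of 0.0525 and 0.0524), after quantile normalization (-0.27, adjusted p = 0.0744) and under the adjusted unpaired t-test (0.052). The dim probe sets 233678_at and 215611_at, at brightness percentiles of 29.0 and 23.3, gave no call, with readings of 3.36 to 3.84 and 2.98 to 3.78 over the 9 arrays. The probe sets of TCF12 thus disagree, and which transcripts 238041_at detects was not examined.

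**Figure D4:**
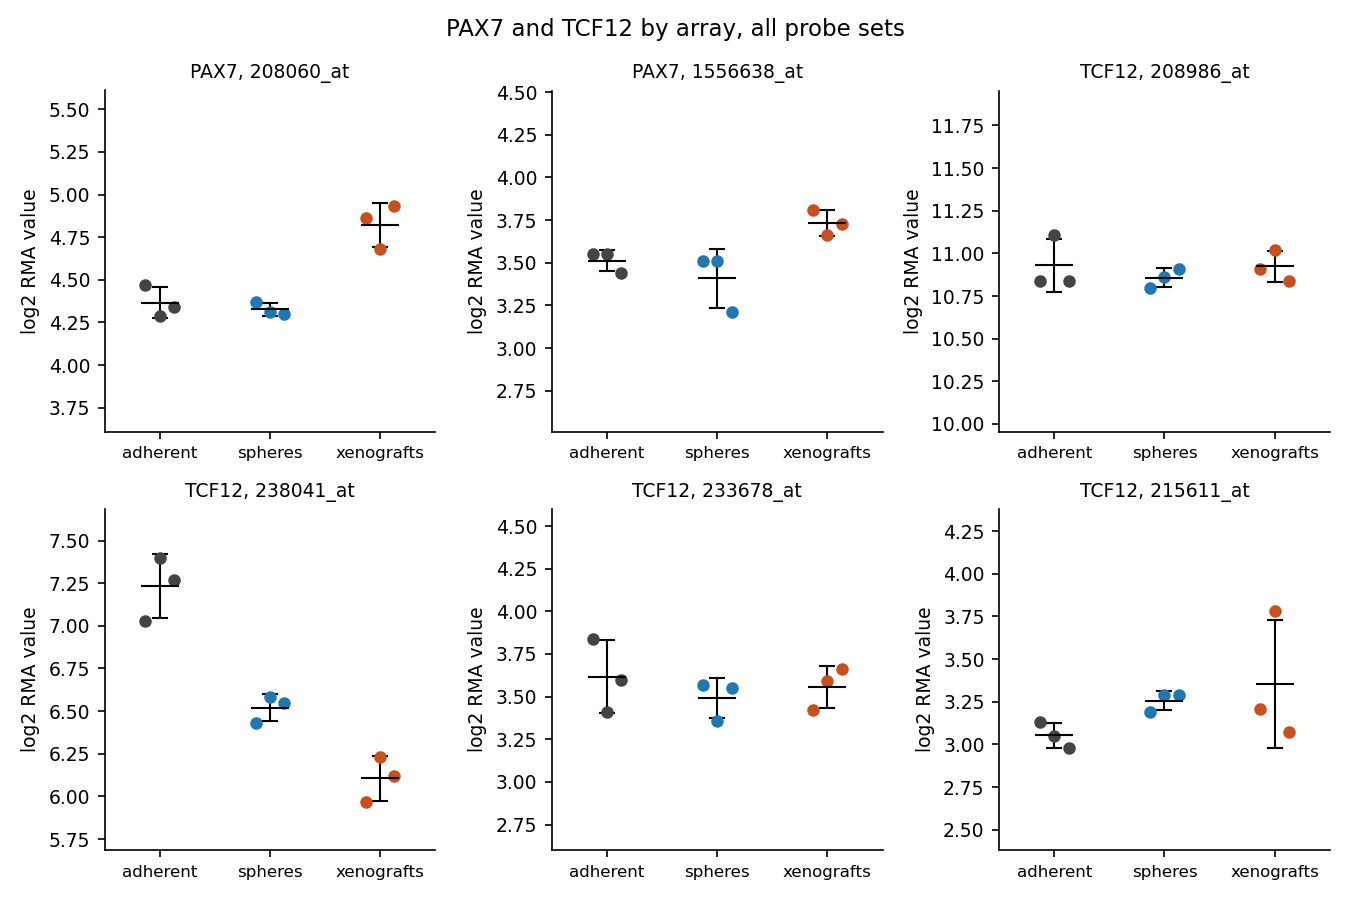
Log2 RMA value of each array at the 2 probe sets of PAX7 and the 4 of TCF12 in the 3 groups, with the mean as a line and the SD as bars. The xenograft arrays of PAX7 at 208060_at lie between 4.68 and 4.93, above all others, and TCF12 falls at 238041_at while its bright probe set 208986_at stays between 10.80 and 11.11.

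With each gene read at its brightest probe set, 1 of the 9 members changed in spheres compared to adherent cells, beside 29.8% of all 19775 genes, and it was MYOG. This count was 3 without xenograft array 3, which enters the shared estimate of spread. In xenografts compared to adherent cells 1 rose (PAX7) and 3 fell (MEF2A, MEF2C and MEF2D), beside 26.9% of all genes. In xenografts compared to spheres 3 rose (MYOG, MYF6 and PAX7) and the same MEF2 genes fell, beside 44.0% of all genes (25.7% higher and 18.3% lower). The orders of the group means at these probe sets put spheres lowest for MYOG, spheres highest for MEF2A and xenografts lowest for MEF2A, MEF2C and MEF2D.

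The other genes of the pathway were read at their brightest probe sets as well. Where one is said to share the group order of a member, the share of all genes with that order was not counted. Among the E proteins and ID inhibitors, which decide how much bHLH factor can pair, 2 of 6 fell in spheres and none rose, beside 16.3% and 13.5% of all genes. ID3 had means of 9.54 (adherent), 8.38 (spheres) and 9.90 (xenografts), a fall of 1.16 in spheres (SE 0.16, limma adjusted p = 0.000204). ID1 had means of 7.05, 6.22 and 7.44 and fell by 0.84 in spheres (SE 0.18, limma adjusted p = 0.0044). Both stood lowest in spheres, as MYOG did. ID4, with means of 5.42, 4.74 and 6.56, differed by -0.68 in spheres and was not called (limma adjusted p = 0.0541). In xenografts compared to adherent cells only ID4 of the 6 rose, by 1.15 (SE 0.23, limma adjusted p = 0.00464). None fell, and 12.6% of all genes rose and 14.3% fell there. The E proteins TCF3 and TCF4 were not called against adherent cells, with sphere differences of 0.12 and -0.08 and xenograft differences of 0.30 and 0.20, and the ID2 differences of 0.48 and -0.04 were not called either. In xenografts compared to spheres 4 of the 6 rose (ID1, ID3, ID4 and TCF4), by 0.28 to 1.82, and none fell, beside 25.7% and 18.3% of all genes. The medians of the list were -0.38, 0.32 and 0.75 in the 3 comparisons, beside -0.04, 0.08 and 0.13 over all genes.

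Of 15 other repressors of the myogenic bHLH factors, 6 rose and 5 fell in spheres, beside 13.5% and 16.3% of all genes, and 6 rose and 2 fell in xenografts, beside 12.6% and 14.3%. BHLHE40, a transcriptional repressor, had means of 7.02 (adherent), 8.71 (spheres) and 8.22 (xenografts), a rise of 1.69 (SE 0.15, limma adjusted p = 1.03e-05) and of 1.20 (limma adjusted p = 0.00025). HEY1, a Notch target, had means of 6.89, 8.49 and 7.72 and rose in both, whereas the related HEYL had means of 8.69, 7.62 and 8.62 and fell by 1.07 in spheres (SE 0.12, limma adjusted p = 5.11e-05). HES1, also a Notch target, had means of 5.43, 6.09 and 7.13. It rose by 0.66 in spheres (limma adjusted p = 0.00276) and by 1.70 in xenografts (limma adjusted p = 8.15e-06). The list thus held rises and falls in spheres in similar number, with a median of -0.25 in spheres and 0.12 in xenografts.

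Of 19 cofactors and repressors of MEF2 and MYOD1, 1 rose and 6 fell in spheres, beside 13.5% and 16.3% of all genes, and 2 rose and 5 fell in xenografts, beside 12.6% and 14.3%. HDAC5, a class IIa deacetylase that represses MEF2, had means of 8.57 (adherent), 7.68 (spheres) and 9.60 (xenografts). It fell by 0.89 in spheres (SE 0.14, limma adjusted p = 0.000618) and rose by 1.04 in xenografts (limma adjusted p = 0.000401), in the opposite order to MEF2A. Other class IIa deacetylases did not share that order: HDAC4 had means of 8.26, 7.36 and 7.89 and HDAC7 of 6.88, 6.44 and 6.38, and both fell in spheres and in xenografts. HDAC9, with means of 5.22, 5.47 and 4.79, had the group order of MEF2A. It was not called against adherent cells and was lower in xenografts than in spheres, by 0.68 (limma adjusted p = 0.0107). KAT2B, an acetyltransferase that coactivates MYOD1, had means of 6.62, 5.79 and 5.37 and fell by 0.83 and 1.26. VGLL2, a TEAD and MEF2 cofactor, had means of 7.72, 7.96 and 8.91 and rose by 1.19 in xenografts (SE 0.13, limma adjusted p = 7.13e-05).

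Of 17 upstream regulators of the muscle lineage, 11 fell and 1 rose in spheres, beside 16.3% and 13.5% of all genes, with a median of -0.44. EYA2, a transcriptional cofactor with phosphatase activity, had means of 10.20 (adherent), 9.09 (spheres) and 10.73 (xenografts), a fall of 1.11 in spheres (SE 0.12, limma adjusted p = 3.7e-05). The 1 that rose was EYA4, of the same family, with means of 8.91, 9.67 and 8.10. In xenografts 3 of 17 rose and 7 fell, beside 12.6% and 14.3% of all genes. Among them were EYA2, which rose by 0.53 (SE 0.12, limma adjusted p = 0.00911), and EYA4, which fell by 0.81 (SE 0.09, limma adjusted p = 7.71e-05). EYA2, like MYOG, was lowest in spheres, and EYA4 had the group order of MEF2A. Other regulators were lowest in spheres too, among them SIX2, EYA3 and PITX1.

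Of 17 satellite cell genes, 2 rose and 5 fell in spheres, beside 13.5% and 16.3% of all genes, and 2 rose and 7 fell in xenografts, beside 12.6% and 14.3%, with a median of -0.23 in spheres and of -0.30 in xenografts, where PAX7 rose. NES, an intermediate filament of progenitor cells, had means of 11.78 (adherent), 10.39 (spheres) and 10.92 (xenografts). SPRY1, an inhibitor of growth factor signalling, had means of 8.04, 8.54 and 8.80 and rose in both, by 0.51 and 0.77. CAV1, a caveolar protein of quiescent satellite cells, had means of 8.63, 8.53 and 6.19 and fell by 2.44 in xenografts (SE 0.13, limma adjusted p = 8.11e-07).

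Among 42 measured target genes of the bHLH and MEF2 factors, 5 rose and 18 fell in spheres, where 13.5% of all genes rose and 16.3% fell, and 9 rose and 16 fell in xenografts, where 12.6% rose and 14.3% fell. The largest rise in xenografts was that of ACTA1, skeletal muscle actin, with means of 5.16, 4.16 and 8.38 and a difference of 3.22 (SE 0.16, limma adjusted p = 3.24e-07). The part of host muscle in the ACTA1 rise was not tested. KLHL41, a sarcomere assembly protein, had means of 9.37 (adherent), 10.10 (spheres) and 6.74 (xenografts), and it fell by 2.62 in xenografts (SE 0.17, limma adjusted p = 2.44e-06). CDKN1A, the cell cycle inhibitor that MYOD1 induces, had means of 9.73, 10.38 and 7.70. Both were highest in spheres and lowest in xenografts, the group order of MEF2A. Other targets with large changes were highest in adherent cells. TNNI1 had means of 11.33, 9.52 and 7.87. Its difference of -3.46 in xenografts was the largest of the list there (limma adjusted p = 2.97e-08). ACTC1 had means of 12.78, 11.34 and 11.54. MYOZ2, a Z-disc protein, had means of 8.80, 6.74 and 6.34 and fell by 2.06 in spheres (limma adjusted p = 1.19e-06) and by 2.46 in xenografts (limma adjusted p = 1.01e-06). List medians were -0.24 in spheres and 0.03 in xenografts.

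**Figure D5:**
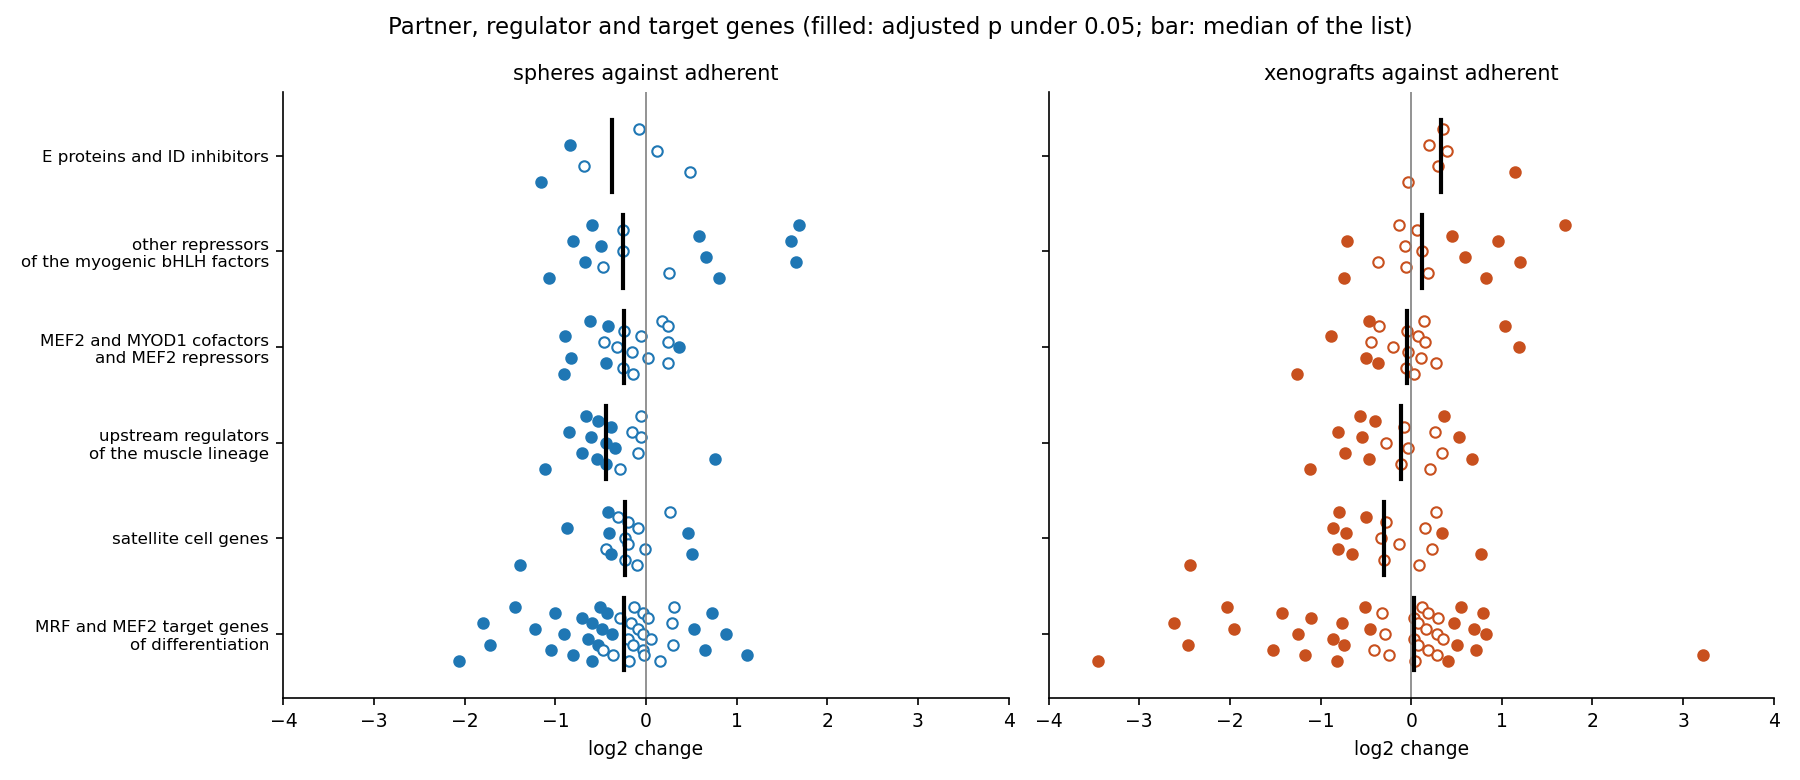
Log2 difference from adherent cells of each measured gene in the lists of E proteins and IDs, other repressors, cofactors, upstream regulators, satellite cell genes and targets, in spheres and in xenografts, with a bar at the median of each list. In spheres the upstream regulators have the lowest median, -0.44, and in xenografts the E proteins and IDs have the highest, 0.32.

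Markers of other cells that a tumor in a mouse could hold were read beside the xenograft results, on human probes that would see mouse RNA only by cross-hybridisation. Of 16 markers of adult muscle fibres, 7 rose and 2 fell in xenografts compared to adherent cells, and 9 of the 16 lay below the median brightness. In that comparison 12.6% of all genes rose and 14.3% fell, and the same shares stand beside the other marker counts below. Their summed level was 10.33 to 10.76 in adherent cells, 9.48 to 9.65 in spheres and 9.73 to 10.17 in xenografts. That sum rests mostly on CA3, a muscle carbonic anhydrase that was bright in culture, with means of 9.86, 7.96 and 8.56. The median difference of the list was 0.28. MYH4, a fast myosin of mature fibres, had means of 2.30, 2.40 and 4.70. Of 10 fibroblast markers, 5 rose and 1 fell, with summed levels of 10.53 to 10.62, 10.68 to 10.92 and 10.84 to 11.56. Of 10 endothelial markers 1 rose and none fell, with 8 of the 10 below the median brightness, and summed levels of 7.53 to 7.59, 7.49 to 7.68 and 7.64 to 7.90. Of 10 macrophage and leukocyte markers 1 rose and 1 fell, with 7 below the median brightness. Their summed level was 10.24 to 10.32 in adherent cells, 9.21 to 9.27 in spheres and at most 8.50 in xenografts, a sum that rests mostly on LAPTM5, a lysosomal protein of leukocytes, with means of 10.06, 8.72 and 6.51. The part of host tissue in the rises of PAX7 and ACTA1 and in the MEF2 falls in xenografts was not tested.

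The genes whose pattern over the 9 arrays was most like that of each member are given as a description, since 3 group means shape most of each correlation. Among 4981 genes searched, MYOG was most like BAG1 (Pearson r of 0.997), PKM (0.995), CD151 and DDX39A (both 0.994). MEF2C was most like WDFY3, ARHGAP35 and PELI2 (each 0.997). MEF2A was most like FNBP4 (0.989) and MATN1-AS1 (0.987), MEF2D like NUDT3 (0.982) and SLAIN2 (0.981), and MYOD1 like ASB9 (0.992) and EMILIN1 (0.986). MYOD1, called in no comparison, had an SD of only 0.15 over the 9 arrays, while the genes searched had at least 0.3. ASB9 had means of 6.10 (adherent), 5.69 (spheres) and 4.32 (xenografts), so the likeness is one of shape and not of size. TCF12, whose groups overlapped at its brightest probe set, reached 0.82 at most, with ZNF624.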

How the data were processed

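RNA of 9 samples (3 adherent, 3 spheres, 3 xenografts, in biological triplicate per the methods) was hybridised to 1-colour Affymetrix U133 Plus 2.0 arrays. The deposited values are log2 intensities that the authors normalized together by RMA, whose software version is not given in the sources used here. RMA forces a shared distribution on the arrays, so a shift of most genes would not show. The number of arrays limits the precision.

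Groups came from the sample labels. After 62 control probe sets were left out, 54613 entered a linear model of limma (version 3.58.1, R 4.3.3) with moderated variances, a coefficient for each group and 6 degrees of freedom left for the spread. The script was first tested on simulated data. P-values are two-sided and adjusted by Benjamini-Hochberg over all of them. The array annotation gave the symbols: 41091 probe sets had 1 symbol, 1801 several and 11721 none. A gene was read at its brightest probe set. The summed level of a list is log2 of the sum of the unlogged values. Promoter windows came from RefSeq (GRCh38.p14). All members are named, with the E protein and ID list in full, up to 4 changed genes with the largest differences from each other list and comparison (fewer are printed), and, from the 4 genes most like each member at or above the median brightness, those with the highest correlations (MYF5, MYF6 and PAX7 were below it and were not searched). HDAC7 was named after its values were seen. The members and lists were chosen with earlier results of these data known. The alternatives were other normalizations, filters, estimates of spread, tests, probe set choices and arrays left out.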

Additional observations from a re-analysis of the deposited data

How the results depend on the processing

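Over single member probe sets and genes, 1068 pairs of a comparison and an alternative were computed: 974 kept direction and side of the threshold, 46 lost a call, 19 gained a call and 29 changed sign, all of these 29 without a call. The number of arrays and dim signals limit small differences. The cause of the changes below was not tested.

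An unpaired t-test with adjustment, as no array test is named in the methods, called 4826 of all probe sets in xenografts against adherent cells and 10414 against spheres. Member probe sets called in xenografts against adherent cells then numbered 4, and against spheres 7, as under quantile normalization (7). Unadjusted, it called 11 in spheres. The 1 member gene called in spheres became 2 with quantile normalization, median centring, brighter probe sets only, a trended robust fit or the adjusted t-test, 3 with the compared groups only, array weights or the mean of all probe sets, and 4 with the unadjusted t-test. The 4 in xenografts became 1 with the adjusted t-test. Leaving out 1 array at a time gave, for spheres, xenografts and xenografts against spheres, 11391 to 15595, 8057 to 13825 and 15906 to 21775 of all probe sets, 5 to 9, 8 to 8 and 7 to 12 member probe sets, and 1 to 3, 4 to 4 and 4 to 7 member genes. The lowest of these for xenografts, 8057, was without adherent array 2.

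Sign changes against adherent cells in spheres were MYOD1 0.02 and MEF2D at 203003_at -0.02 (quantile), and MEF2D 0.07 (mean of probe sets). In xenografts they were MYF5 -0.05 (quantile) and -0.01 (centred), MYOG -0.05 (centred), and TCF12 at 208986_at 0.07 (quantile) and 0.04 (weights). Against spheres they were MEF2C at 207968_s_at 0.03, TCF12 at 215611_at -0.00 and at 233678_at -0.03 (quantile), and TCF12 -0.05 (mean of probe sets). With 1 array left out, the differences in spheres ranged from -0.08 to 0.20 for MEF2D at 203003_at, -0.15 to 0.00 for PAX7 at 1556638_at, -0.08 to 0.01 for PAX7 at 208060_at and -0.12 to 0.01 for TCF12 at 208986_at. In xenografts they ranged from -0.04 to 0.09 for MYF5, -0.04 to 0.07 for MYOG, -0.06 to 0.08 for TCF12 at 208986_at and -0.17 to 0.05 for 233678_at. Against spheres they ranged from -0.02 to 0.26 for MEF2D at 203003_at, -0.11 to 0.24 for TCF12 at 215611_at and 0.00 to 0.13 for 233678_at.

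Samples share replicate numbers without pairing: same-number correlations ran from -0.177 to 0.183, over 0.1 in 2 of 9 pairs, and 2 of 9 arrays correlated best with their own number. With the replicate block, 6, 8 and 11 member probe sets and 1, 4 and 6 member genes were called, and 13562, 11273 and 20294 of all probe sets. The block ended the call of MEF2C at 209200_at against spheres (adjusted p = 0.0538) and of no other single probe set.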
